A study of Mus musculus with 18 samples.

Results

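The genes described here are the enzymes that write and remove cytosine methylation in the early mouse embryo: the DNA methyltransferases Dnmt1, Dnmt3a and Dnmt3b, their cofactors Dnmt3l and Uhrf1, and the dioxygenases Tet1, Tet2 and Tet3. They were chosen by name as 8 of the 22997 nuclear genes in the count tables, and all 8 were found. The cells came from C57BL/6 WT mouse embryos, labelled as whole embryo, in 6 libraries from embryonic day (E) 6.75 and 12 from E7.5. E6.75 cells were picked by hand from singly dissociated embryos whose extraembryonic part had been removed, and processed with CEL-Seq2. E7.5 cells were sorted by flow cytometry from pooled embryos of 1 or 2 litters, trimmed so that extraembryonic mesoderm stayed, and processed with mCEL-Seq2, the miniaturised robotic form of that protocol. Both protocols count RNA molecules at their 3′ end by a unique molecular identifier. Stage, collection and protocol changed together, so their parts in any stage difference cannot be told apart.

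DNA methylation at CG dinucleotides is stripped from the genome before implantation and laid down again in the epiblast, the tissue that forms the embryo proper. DNMT3A and DNMT3B do this de novo work, helped by the catalytically inactive DNMT3L. DNMT1 copies the marks after replication, guided by UHRF1, which binds hemimethylated DNA. TET proteins oxidise 5-methylcytosine as a first step of its removal. During gastrulation, epiblast cells pass through the primitive streak and become mesoderm or endoderm.

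Tables held 576 used barcodes for the earlier and 1152 for the later stage, where the design states 576 and 1172 cells. Cells with at least 2000 nuclear transcripts were kept, 543 and 429 of them. The E7.5 replicate 5 kept 0 cells and entered no comparison. The 17 other libraries held 518343 to 5493791 nuclear transcripts. Visceral endoderm cells, with Ttr, Apoa1 and Spink1 summing to at least 20 per 10000 transcripts, were set apart (39 and 2 cells). The lowest of them stood at 22.1 per 10000 and the highest cell outside at 17.9. The remaining embryonic cells were grouped by detection of Mesp1, a mesoderm factor, Foxa2, a factor of endoderm and axial mesoderm, and Sox2, a factor of epiblast and neural ectoderm. Mesp1 cells had Mesp1 without Foxa2 (5.34% of the kept E6.75 cells and 29.1% of the kept E7.5 cells), and Foxa2 cells the reverse (15.1% and 11.2%). Sox2 cells had Sox2 and neither of the others (49.7% and 30.1%), and undetected cells had none of the 3 (18.8% and 26.3%). The 21 and 12 cells with both Mesp1 and Foxa2 entered no group. Undetected cells were shallow at E6.75, with a median of 7981 transcripts against 47268 in Sox2 cells, and how many of them had Sox2 below detection was not tested. In sums over cells, fewer cells of a type and less RNA per cell cannot be told apart. The summed mesoderm markers had a library median of 11.3 per 10000 in E7.5 Mesp1 cells and 1.43 in E7.5 Sox2 cells. The endoderm and axial markers had a median of 9.89 in E7.5 Foxa2 cells and 0.870 in E7.5 Sox2 cells. These lists hold Mesp1 and Foxa2 themselves, so part of each difference was fixed by the choice of cells. Mesp1 cells at E6.75 came from replicates 2_9, 2_13 and 2_14 alone, with 3, 15 and 11 cells. Levels below are transcripts per 1000000 nuclear transcripts (CPM), from sums over the cells of a group in a library. Because 3′ ends are counted, they were not divided by gene length, and isoforms of 1 gene are not told apart. Nothing shows that libraries of a stage came from separate embryos, so p-values measure the spread between libraries.

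The promoter windows of the members differ in their CG content, and those printed here are of the most abundant and a scarce member of the de novo group. RefSeq windows of 300 bases, 250 before to 50 after a start (GRCm38.p6), matched all 8 members with 15 windows. The Dnmt3b window (chr2:153649199-153649498, plus strand) held 30 CG dinucleotides, and the first of the Dnmt3l windows (chr10:78042037-78042336, plus strand) held 6. The median over all 32851 windows was 7, with quartiles of 3 and 20. Capitals mark CG dinucleotides.

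Dnmt3b: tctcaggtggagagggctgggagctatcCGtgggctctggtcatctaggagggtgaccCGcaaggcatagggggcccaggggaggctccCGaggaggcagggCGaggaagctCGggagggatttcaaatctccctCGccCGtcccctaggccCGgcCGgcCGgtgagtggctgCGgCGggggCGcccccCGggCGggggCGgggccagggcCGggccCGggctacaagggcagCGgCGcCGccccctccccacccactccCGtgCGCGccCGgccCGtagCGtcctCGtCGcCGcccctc

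Dnmt3l: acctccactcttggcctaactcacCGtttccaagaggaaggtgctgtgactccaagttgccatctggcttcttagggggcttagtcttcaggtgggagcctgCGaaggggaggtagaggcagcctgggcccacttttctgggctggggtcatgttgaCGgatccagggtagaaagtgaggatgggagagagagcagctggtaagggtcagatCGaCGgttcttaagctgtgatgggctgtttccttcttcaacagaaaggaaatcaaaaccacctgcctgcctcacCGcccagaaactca

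The other 2 Dnmt3l windows held 4 and 3 CG dinucleotides, the 3 Dnmt1 windows 33, 12 and 2, the 2 Uhrf1 windows 12 and 33, the 3 Dnmt3a windows 46, 47 and 18, the Tet1 window 17, the Tet3 window 22 and the Tet2 window 57. The fewest of the 15 were thus in a Dnmt1 window. No methylation was measured in these data, so the windows are shown as annotation only.

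Dnmt3b was by far the most abundant member. In embryonic cells at E6.75 its level was 3392, 4061, 4027, 3838, 3781 and 4847 CPM in replicates 1_10, 1_11, 2_12, 2_13, 2_14 and 2_9. At E7.5 the 11 libraries ran from 966 to 2752 with a median of 1882, all below the lowest E6.75 library. The means were 3991 ± 483 (SD, n = 6) and 1892 ± 551 (n = 11), a log2 fold change of -1.20 (SE 0.164, limma voom adjusted p = 6.36e-06). Dnmt3b (GRCm38 chromosome 2, 153649450 to 153687730, plus strand) overlaps the antisense gene Dnmt3bos at its start, which had 55 transcripts in the kept cells against 116123 for Dnmt3b, and whether the counting used strand is not given in the sources used here. Its paralog Dnmt3c lies next to it at 153696652 to 153729907 and has no row in the tables, so reads of the pair could have been counted together.

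Dnmt3a, the other de novo enzyme, had a lower level than Dnmt3b and was also lower at E7.5. Its E6.75 values were 670, 709, 731, 578, 599 and 762 CPM in the same order of replicates. At E7.5 they ran from 106.5 to 318.7 with a median of 230, and the stages did not overlap. The means were 675 ± 73.4 (n = 6) and 227 ± 52.8 (n = 11), a log2 fold change of -1.63 (SE 0.128, adjusted p = 6.67e-09). Dnmt3a lies on chromosome 12 at 3806007 to 3914443, plus strand.

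In this comparison of all embryonic cells, 7 members passed the low-count filter. Dnmt3l passed through its E6.75 level alone, which fixed its direction, and it is described by its levels further on. Of the 6 others, 4 were lower at E7.5 and none was higher. Of all 9976 genes tested, 43.4% were called and 21.4% were called lower. The median log2 fold change was -0.78 over these 6 members and 0.02 over all genes tested. Tet1 was lower too, at 245.6, 228.1, 204.0, 177.6, 188.7 and 181.6 CPM at E6.75 and 61.40 to 127.6 (median 88.8) at E7.5. Its libraries did not overlap between stages, and the log2 fold change was -1.31 (SE 0.107, adjusted p = 1.09e-08). Overlap was not counted over all genes, here or below, so no share of genes without it is given. Tet1 lies on chromosome 10 at 62804570 to 62908996, minus strand.

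Dnmt1, the maintenance enzyme (chromosome 9, 20907209 to 20959888, minus strand), was modestly lower. Its mean was 126.6 ± 18.9 CPM (n = 6) at E6.75 and 99.9 ± 15.9 (n = 11) at E7.5, with 3 E7.5 libraries above the lowest E6.75 library. The log2 fold change of -0.37 (SE 0.105, adjusted p = 0.0073) did not hold when the E6.75 libraries numbered with prefix 1 were left out (-0.24, adjusted p = 0.0661) or with cells thinned to 2000 transcripts (-0.24, adjusted p = 0.521). Uhrf1 (chromosome 17, 56303321 to 56323486, plus strand) had means of 164.7 ± 31.5 and 168.6 ± 30.8 CPM, and Tet3 (chromosome 6, 83362373 to 83459084, minus strand) of 34.2 ± 4.83 and 37.4 ± 7.61. Neither passed the test, with log2 fold changes of -0.02 (SE 0.116) and 0.12 (SE 0.122). The 8 members summed to a library median of 5129 CPM in E6.75 and 2491 CPM in E7.5 libraries, most of it Dnmt3b.

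**Figure D1:**
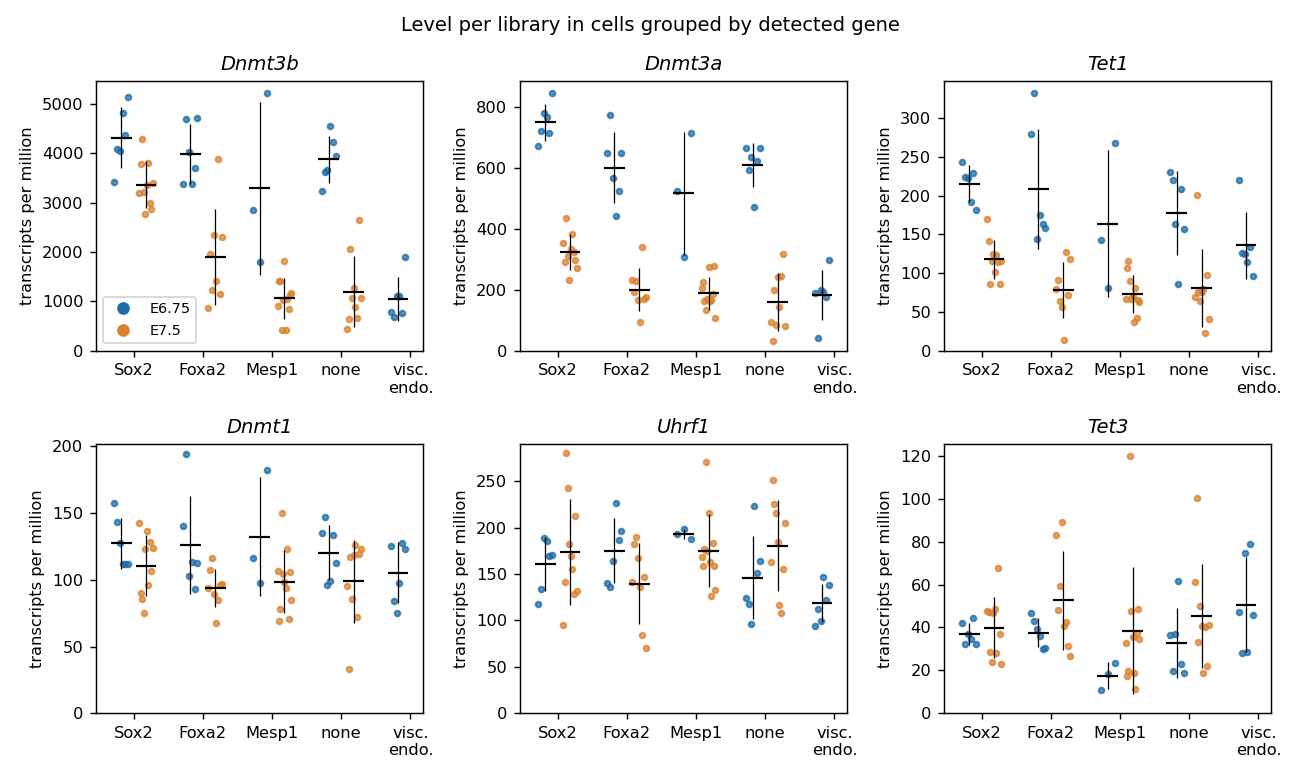
Level of 6 members in CPM (linear axes from 0), with 1 point per library, for cells grouped by the detected gene; "none" marks cells without Sox2, Foxa2 or Mesp1, "visc. endo." visceral endoderm at E6.75, horizontal bars are means and vertical lines SDs. Dnmt3b, Dnmt3a, Tet1 and Dnmt1 have lower means at E7.5 in the 4 groups shown with both stages. Libraries of the stages do not overlap in any of the 4 for Dnmt3a. They do not overlap in Sox2 and Foxa2 cells for Tet1, nor in "none" cells for Dnmt3b. For Dnmt1, Uhrf1 and Tet3 they overlap in all 4. Overlap was not counted over all genes.

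The stage comparison was repeated within Sox2, Foxa2 and Mesp1 cells, because E7.5 libraries held more Mesp1 cells; it was not run within undetected cells. In Sox2 cells, 3 of 6 tested members were lower at E7.5 and none higher, where 26.8% of 8043 genes were called and 13% called lower. Dnmt3a had the clearest step there, from 673, 722, 781, 768, 715 and 846 CPM in E6.75 replicates 1_10, 1_11, 2_12, 2_13, 2_14 and 2_9 to 233 to 438 (median 318, n = 10), with a log2 fold change of -1.25 (SE 0.0973, adjusted p = 1.05e-08). Tet1 followed with -0.95 (SE 0.11, adjusted p = 1.58e-06) and again no overlap. Dnmt3b in Sox2 cells moved little, from 3410 to 5140 (median 4232) to 2778 to 4292 (median 3286), and 3 E7.5 libraries were above the lowest E6.75 library. Its log2 fold change was -0.39 (SE 0.0909, adjusted p = 0.00286), which did not hold in cells thinned to 2000 transcripts (-0.23, adjusted p = 0.108). Markers moved with the stage inside the Sox2 group. Of 7 epiblast and ectoderm markers, 4 (Utf1, Pou3f1, Otx2 and Epcam) were lower at E7.5 and none higher, and their sum ranged over the libraries from 22.3 to 31.3 per 10000 at the earlier stage and from 11.03 to 24.5 at the later. Of 9 mesoderm markers, 4 could be tested, of which Snai1, Pdgfra and Hand1 were higher and Lefty2 lower, and their sum was 0.466 to 1.12 and 0.768 to 3.801 per 10000, with Mesp1 at 0 by the choice of cells and Msgn1 at 0 at E6.75. In all embryonic cells, 6 of 7 epiblast and ectoderm markers were lower (21.6 to 29.4 against 4.93 to 15.4 per 10000) and 6 of 8 tested mesoderm markers higher (0.622 to 4.28 against 2.70 to 13.1). The part of these cell types in the stage differences was not tested.

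In Foxa2 cells, Dnmt3a (-1.46, SE 0.16), Dnmt3b (-1.24, SE 0.195) and Tet1 (-1.21, SE 0.236) were lower at E7.5, 3 of 6 tested members against 20.6% of 5170 genes called and 9.75% called lower. Their adjusted p were 1.44e-06, 0.000106 and 0.000955. In Mesp1 cells, 3 of 6 were again lower against 11.5% of 6980 genes called and 6.78% called lower, namely Dnmt3a (-1.34, SE 0.211, adjusted p = 0.000399), Dnmt3b (-1.41, SE 0.256, adjusted p = 0.00128) and Tet1 (-0.91, SE 0.258, adjusted p = 0.0253). The E6.75 side of the Mesp1 comparison had 3 libraries, at 2859, 1796 and 5222 CPM for Dnmt3b in replicates 2_13, 2_14 and 2_9. The Tet1 call in Mesp1 cells was lost without replicate 2_13 (adjusted p = 0.174), without 2_9 (0.113), and without the deepest cells (0.12). Dnmt3a was thus the member whose libraries were lower at E7.5 with no overlap in the Sox2, Foxa2, Mesp1 and undetected groups. How many of all genes did the same was not counted, and the Mesp1 group had 3 E6.75 libraries. Dnmt1 and Uhrf1 passed the test in none of the Sox2, Foxa2 and Mesp1 groups, though Dnmt1 passed in Sox2 cells with no low-count filter (-0.40, adjusted p = 0.0217). Tet3 had log2 fold changes of 0.04 (SE 0.159) in Sox2 cells, 0.57 (SE 0.232, adjusted p = 0.0869) in Foxa2 cells and 1.02 (SE 0.435, adjusted p = 0.14) in Mesp1 cells. The last 2 came under the threshold when single E7.5 libraries were left out, to 0.0439 without replicate 6 in Mesp1 cells and to 0.0337 and 0.0487 without replicates 7 and 8 in Foxa2 cells.

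In the Foxa2 group 5 of 7 and in the Mesp1 group 7 of 7 epiblast and ectoderm markers were lower at E7.5, with sums of 20.3 to 23.9 against 7.57 to 16.6 and of 10.4 to 24.8 against 3.69 to 7.94 per 10000.

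**Figure D2:**
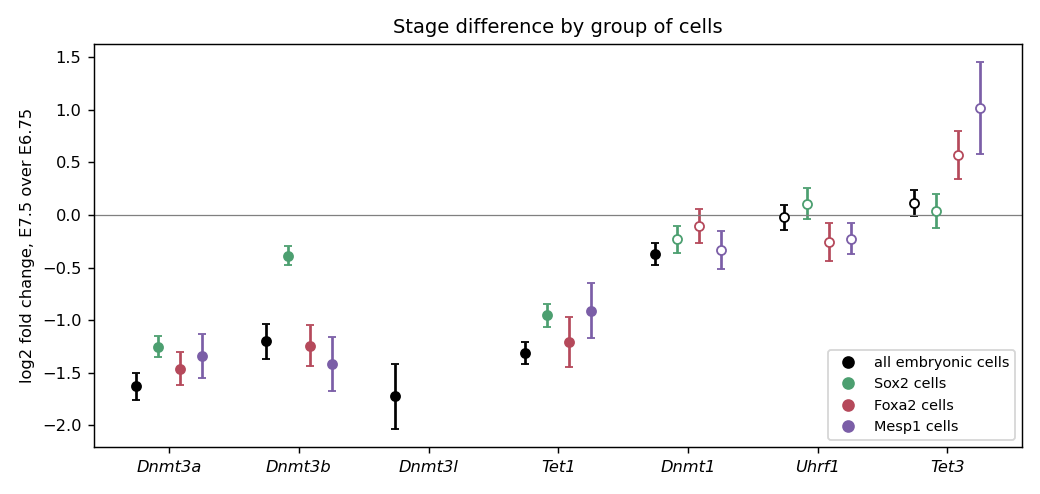
Log2 fold change of E7.5 over E6.75 with its standard error for the 7 members tested, in all embryonic cells and in cells with Sox2, Foxa2 or Mesp1; filled points passed the adjusted threshold of 0.05, open points did not, and Dnmt3l passed the filter through its E6.75 level alone. Dnmt3a and Tet1 lie below -0.9 in all 4 groups, while Dnmt3b lies at -0.39 in Sox2 cells and between -1.20 and -1.41 elsewhere.

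Within E7.5, Dnmt3b was highest in Sox2 cells, intermediate in Foxa2 cells and lowest in Mesp1 cells. In Sox2 cells its level was 2778 to 4292 CPM (median 3286, n = 10 libraries), in Foxa2 cells 867 to 3873 (median 1687, n = 8) and in Mesp1 cells 420 to 1823 (median 1052, n = 11). Within single libraries, Mesp1 cells were lower than Sox2 cells in 10 of 10, Foxa2 cells lower than Sox2 cells in 7 of 8, and Mesp1 cells lower than Foxa2 cells in 7 of 8. With the library as a block, the log2 fold change of Mesp1 over Sox2 cells was -1.60 (SE 0.147, adjusted p = 9.59e-11), and 3 of 6 tested members were called, all lower, against 13.6% of 5464 genes called and 7.25% called lower. The others were Dnmt3a, at -0.72 (SE 0.147, adjusted p = 0.000351), and Tet1, at -0.73 (SE 0.143, adjusted p = 0.000186), each lower in 9 of 10 libraries. Dnmt1 was lower in 9 of 10 libraries as well but did not pass (-0.27, SE 0.106, adjusted p = 0.0928). It passed without the cells that met the marker rule for extraembryonic ectoderm (0.045) or without replicate 12 (0.0279). Uhrf1 was at -0.03 (SE 0.108), with 4 libraries lower and 6 higher. In the same comparison 7 of 7 epiblast and ectoderm markers were lower, and their part in the differences was not tested. The 7 include Sox2, which every Sox2 cell has by the choice of cells.

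Foxa2 cells stood between the other 2 groups in Dnmt3b. Against Sox2 cells, 1 of 6 tested members was called, Dnmt3b at -0.96 (SE 0.173, adjusted p = 0.000442), where 4.14% of all genes were called and 1.23% called lower. Dnmt3a was at -0.59 (SE 0.192) and missed the threshold (adjusted p = 0.0752), but passed without replicate 2 (0.0489), without replicate 6 (0.0444) or without the extraembryonic ectoderm rule cells (0.0486). Against Foxa2 cells, Mesp1 cells were lower in Dnmt3b by -0.64 on the log2 scale (SE 0.167, adjusted p = 0.00781), 1 of 6 members against 9.52% of genes called and 6.22% called lower. That call was lost without the replicate block (-0.60, adjusted p = 0.086) and with cells of at least 10000 transcripts (-0.52, adjusted p = 0.0906). Tet3 pointed the same way at -0.74 (SE 0.253, adjusted p = 0.0573) and passed without replicates 7, 8 or 12 in turn or without the extraembryonic ectoderm rule cells.

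Undetected cells at E7.5 were lower than Sox2 cells in Dnmt3b (-1.55, SE 0.188, adjusted p = 1.94e-07, lower in 8 of 8 libraries), Dnmt3a (-0.86, SE 0.19, adjusted p = 0.00159) and Tet1 (-0.65, SE 0.174, adjusted p = 0.00853), 3 of 6 members against 11.7% of genes called and 5.27% called lower. The Tet1 call was lost without replicate 1 (adjusted p = 0.0571), by limma-trend (0.082) and with no low-count filter (0.0563). Summed mesoderm markers of the undetected cells had a library median of 6.66 per 10000 and blood markers of 1.73, against 1.43 and 0.145 in Sox2 cells, and the part of these cell types in the differences was not tested. At E6.75, no member passed between the undetected and the Sox2 cells, with 0 of 6 called by limma voom and 0.565% of 7782 genes called. At an unadjusted p below 0.05 stood no member and 659 of the 7782 genes. With no low-count filter, 2 members passed, 1 of them Dnmt3a (-0.29, adjusted p = 0.0123). In that setting 8433 genes were called, against 44 with the filter, so these passes are not particular to the members.

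At E6.75 the lineage differences in Dnmt3b were smaller and rested on few libraries. Mesp1 cells were lower than Sox2 cells in 2 of 3 libraries, at 2859 against 4819 CPM in replicate 2_13 and 1796 against 4369 in 2_14, but 5222 against 5140 in 2_9, which had 3 Mesp1 cells. The log2 fold change was -0.70 (SE 0.121, adjusted p = 0.000382). Dnmt3a was lower in 3 of 3 libraries, at -0.63 (SE 0.133, adjusted p = 0.00395), and Tet3 in 3 of 3, at -1.24 (SE 0.302, adjusted p = 0.0159). These were 3 of 6 tested members, where 2.92% of 7782 genes were called and 0.835% called lower. Without replicate 2_14 none of the 3 calls held (adjusted p = 0.0796 for Dnmt3b, 0.44 for Dnmt3a and 0.105 for Tet3), and without 2_13 that of Tet3 did not (0.322). Without the replicate block, Dnmt3b lost its call (-0.59, adjusted p = 0.119). By limma-trend, Dnmt3a (0.0636) and Tet3 (0.445) lost theirs, and in cells thinned to 2000 transcripts Dnmt3a moved to -0.27 (adjusted p = 0.969). Of 7 epiblast and ectoderm markers, 6 were lower in this comparison, and the 7 include Sox2, which every Sox2 cell has by the choice of cells. Tet1 missed the threshold at -0.58 (SE 0.206, adjusted p = 0.149). It passed without replicate 2_9 (-0.87, adjusted p = 0.0169), without the deepest cells (-0.88, adjusted p = 0.008) and with no low-count filter (0.0433). With no filter 3723 genes were called, against 227 with it.

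Foxa2 cells at E6.75 differed from Sox2 cells in Dnmt3a alone among the 6 tested members, against 0.951% of genes called and 0.231% called lower. Dnmt3a was lower in 5 of 6 libraries, at -0.43 (SE 0.0864, adjusted p = 0.00716), and Dnmt3b was at -0.21 (SE 0.0737, adjusted p = 0.245). The Dnmt3a call was lost without the replicate block (-0.40, adjusted p = 0.399), without replicate 2_13 (-0.31, 0.0756), by limma-trend (-0.34, 0.597) and in thinned cells (-0.59, 0.49). The Dnmt3b difference passed without replicate 2_9 (adjusted p = 0.0249), without the deepest cells (0.00955) and with no low-count filter (-0.42, 1.21e-12). With no filter 1239 genes were called, against 74 with it. Mesp1 cells were lower than Foxa2 cells in Dnmt3b (-0.48, SE 0.115, adjusted p = 0.0228) and Tet3 (-1.19, SE 0.281, adjusted p = 0.0224), 2 of 6 against 1.41% of genes called and 0.386% called lower. Neither held without replicate 2_14 (0.576 and 0.0695), by limma-trend (0.221 and 0.567) or with no low-count filter (0.124 and 0.135). Tet3 did not hold without replicate 2_13 (-0.78, adjusted p = 0.374), and Dnmt3b not without the replicate block (-0.46, adjusted p = 0.389) or in thinned cells (-0.64, adjusted p = 0.219). For Tet3 the E6.75 Mesp1 sums held 25 transcripts in all, at 18.2, 11.1 and 23.4 CPM.

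The lineage difference itself was compared between stages. The log2 difference of Mesp1 from Sox2 cells in Dnmt3b was larger at E7.5 than at E6.75 by -0.86 (SE 0.214, adjusted p = 0.0367), and Dnmt3b was the 1 member called of 6, where 0.522% of 8242 genes were called and 0.449% called lower. That call was lost in 12 of 26 other settings, among them without E6.75 replicate 2_13 (adjusted p = 0.224), 2_9 (0.188) or 1_10 (0.0506) and without E7.5 replicate 4 (0.0804), 7 (0.0568) or 11 (0.0519). For Foxa2 against Sox2 cells it was -0.76 (SE 0.204, adjusted p = 0.0786), with 0 of 6 members called by limma voom and 0.437% of genes called. At an unadjusted p below 0.05 stood 2 of 6 members (Dnmt3b and Uhrf1) and 817 of all 8242 genes. The Dnmt3b value passed without E6.75 replicate 2_13 (0.032), without E7.5 replicate 6 (0.017) and without the extraembryonic ectoderm rule cells (0.0351).

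**Figure D3:**
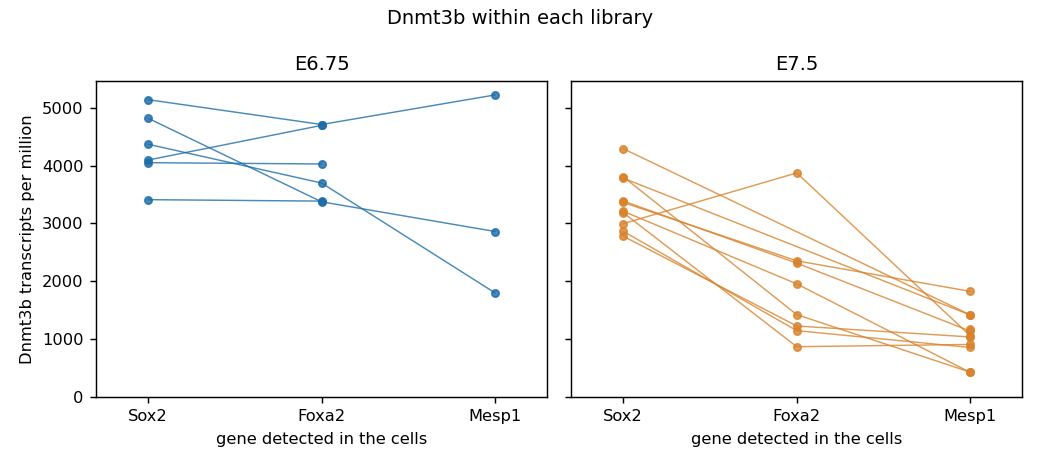
Dnmt3b in CPM in Sox2, Foxa2 and Mesp1 cells, with 1 line per library, at E6.75 (left) and E7.5 (right), on a shared linear axis from 0. Every E7.5 library with both groups has less Dnmt3b in Mesp1 than in Sox2 cells, while 1 of the 3 E6.75 libraries with Mesp1 cells does not.

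The share of cells with a Dnmt3b transcript was taken after thinning each cell to 2000 transcripts. At E6.75 all 82 Foxa2 cells had at least 1, and the share was 98.9% of Sox2, 97.1% of undetected and 82.8% of Mesp1 cells, so Foxa2 cells did not lie between the others here. At E7.5 it was 95.4% of Sox2, 87.5% of Foxa2, 70.8% of undetected and 67.2% of Mesp1 cells. Cells with both Mesp1 and Foxa2 had 95.2% and 58.3%. Unthinned shares in Sox2 and Mesp1 cells were 99.6% and all at E6.75, and 99.2% in each at E7.5. For Dnmt3a the thinned shares in Sox2 and Mesp1 cells were 71.1% and 44.8% at E6.75, and 40.3% and 28% at E7.5. At this depth visceral endoderm cells had Dnmt3b in 89.7%. Cells with both Mesp1 and Foxa2, pooled over libraries, had Dnmt3b at 3467 CPM at E6.75 (21 cells) and 798 at E7.5 (12 cells), and Dnmt3a at 541 and 269.

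The balance between the de novo enzymes also differed between stages in Sox2 cells. The log2 ratio of Dnmt3b to Dnmt3a transcripts in Sox2 cells was 2.34 to 2.65 (median 2.55) in the 6 E6.75 libraries and 3.17 to 3.70 (median 3.32) in the 10 E7.5 libraries, with no overlap. In Mesp1 cells it was 2.44 to 2.87 at E6.75 and 1.39 to 3.46 (median 2.62) at E7.5, which overlap. The stages also overlapped in Foxa2 cells (medians 2.82 and 3.423), undetected cells (2.585 and 3.056) and all embryonic cells (2.588 and 3.11). These ratios are descriptions and were not tested.

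Visceral endoderm, an extraembryonic layer that surrounds the epiblast, had less of the de novo enzymes than embryonic cells of the same E6.75 libraries. Dnmt3b stood at 673 to 1895 CPM (median 943, n = 6), below the embryonic cells in 6 of 6 libraries, with a log2 fold change of -1.99 (SE 0.163, adjusted p = 1.83e-08). Dnmt3a was at 41.96 to 297 CPM (median 190), also lower in 6 of 6, with -1.86 (SE 0.251, adjusted p = 1.24e-05). Tet1 was lower by -0.73 (SE 0.208, adjusted p = 0.0115), which was lost without replicate 2_9 (adjusted p = 0.0694) and changed sign to 0.36 (adjusted p = 0.58) in thinned cells. Dnmt1 (-0.25, SE 0.232), Uhrf1 (-0.50, SE 0.205, adjusted p = 0.0691) and Tet3 (0.49, SE 0.279) did not pass. Dnmt3l had 0 transcripts there, and the sign of its fitted difference depends on the constant added to 0. Apart from Dnmt3l, 3 of 6 tested members were called, all lower, against 34.1% of 9144 genes called and 16.2% called lower. Uhrf1 passed with no low-count filter (0.0168), and Tet3 by limma-trend (0.81, adjusted p = 0.00427). All 9 visceral endoderm markers were detected in these cells and summed to 86.5 to 126.2 per 10000, against 1.09 to 1.95 in embryonic cells. The 9 include the 3 genes that define visceral endoderm here, so part of this gap was fixed by the choice of cells. All 7 epiblast and ectoderm markers were detected there too, at 10.7 to 20.4 per 10000 against 21.6 to 29.4 in embryonic cells, and the part of epiblast RNA in the levels of this group was not tested. Of these 7, 4 were lower, namely Pou5f1 (-3.07), Sox2 (-3.01), Pou3f1 (-3.40) and Utf1 (-1.84), Epcam and Cdh1 did not pass, and Otx2, which visceral endoderm is also known to express, was higher (0.57, adjusted p = 0.0406). S-phase markers summed to 18.1 to 28.5 per 10000 there and 36.9 to 40.8 in embryonic cells. Of the 41 cells, 16 had less than 40 per 10000 of the 3 genes that define the group.

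Dnmt3l, the inactive cofactor (chromosome 10, 78041947 to 78063622, plus strand), was scarce in embryonic cells. In embryonic cells it had 7.77, 8.33, 11.5, 7.43, 7.81 and 8.08 CPM at E6.75 and 0 to 12.2 (median 2.37, 40 transcripts) at E7.5. It passed the low-count filter through its E6.75 level alone, so no test of the stages is drawn from it. The highest values at each stage were in libraries with cells that met a marker rule for extraembryonic ectoderm, at least 3 of 8 markers and 5 per 10000 in sum. These 13 cells at E6.75 had Dnmt3l at 35.3 CPM, and the 5 at E7.5 at 111.3 CPM, or 20 of the 40 transcripts. Without them the E7.5 range was 0 to 2.72 CPM (mean 1.29 ± 1.01, n = 11) against 6.11 to 9.68 (mean 7.85 ± 1.25, n = 6) at E6.75. The stages then did not overlap. The same cells had Dnmt3a at 70.7 and 33.4 CPM and Dnmt3b at 1337 and 1181, below the embryonic means of their stages. Of them, 10 and 4 counted as Sox2 cells. Visceral endoderm had 0 Dnmt3l transcripts in 39 cells, which with a floor of 3 counts over the group is at least 2.76-fold lower than the 8.30 CPM of the pooled embryonic cells. A fitted fold change depends on the constant added to 0 and is not used. Counting floors cover counting error only.

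Dnmt1 and Uhrf1 act at replication, and embryonic cells of each library were therefore split at the median of their summed S-phase markers, 21 genes that do not include the members. The split used per-cell shares with stage medians of 36.8 per 10000 at E6.75 and 38.9 at E7.5. It also divided cells by depth. At E6.75 the high-share cells had the larger median depth in every library, such as 55250.5 against 12731.8 transcripts in replicate 2_9. At E7.5 the order varied, with 4031.2 against 37151.9 in replicate 12 and 59209.5 against 57139.6 in replicate 7. The part of depth was not tested beyond the thinned cells given below, and in thinned E7.5 cells Uhrf1 did not pass the low-count filter. Uhrf1 was higher in the high-share cells in 6 of 6 libraries at E6.75 and 11 of 11 at E7.5. At E7.5 it was 92.18 to 206 CPM (median 135.9) in low-share and 151.3 to 241 (median 200.5) in high-share cells, with a log2 fold change of 0.56 (SE 0.0782, adjusted p = 0.000117). At E6.75 it was 100.9, 119.1, 163.8, 159.5, 152.2 and 154.3 CPM in low-share and 139.1, 139.3, 189.4, 244.9, 200.6 and 184.3 in high-share cells of replicates 1_10, 1_11, 2_12, 2_13, 2_14 and 2_9, with 0.36 (SE 0.0747, adjusted p = 0.0121). Without the replicate block the E6.75 call was lost (0.34, adjusted p = 0.88), as it was without replicate 2_13 (0.27, 0.0777), without 2_14 (0.35, 0.0575) and in thinned cells (0.40, 0.617). Uhrf1 was the 1 member called of 7 tested at E6.75 and of 6 at E7.5, where 2.11% of 9438 and 3.13% of 6580 genes were called, and 0.752% and 1.5% were called higher. Dnmt1 did not pass, at -0.04 (SE 0.0706) and -0.03 (SE 0.12), higher in 3 of 6 and 5 of 11 libraries. Dnmt3b was at -0.01 (SE 0.0442) and 0.19 (SE 0.144).

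Of the 15 member windows, 2 held the consensus of the E2F factors, which drive S-phase genes. They were 1 of the 3 Dnmt1 windows and 1 of the 2 Uhrf1 windows. They are printed to set the matches beside the S-phase values of these genes. The motif was searched as TTTCCCGC, TTTCGCGC, TTTGCCGC and TTTGGCGC on both strands, and 2.26% of all windows held it. Each spelling contains CG, and both windows held 33 CG dinucleotides against a median of 7 over all windows. The 2.26% is therefore not matched for CG content. Capitals mark matches. The Dnmt1 window (chr9:20952574-20952873, minus strand) had 2 matches, from bases 32 and 284 counted from the first printed base, and the Uhrf1 window (chr17:56304063-56304362, plus strand) had 1, from base 66.

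Dnmt1: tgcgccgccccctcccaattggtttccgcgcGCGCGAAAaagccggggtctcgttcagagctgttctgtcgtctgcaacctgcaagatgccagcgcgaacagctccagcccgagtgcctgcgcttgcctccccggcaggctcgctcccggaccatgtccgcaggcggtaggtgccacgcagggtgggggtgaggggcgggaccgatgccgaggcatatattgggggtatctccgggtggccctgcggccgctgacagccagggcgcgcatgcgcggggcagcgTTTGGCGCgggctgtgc

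Uhrf1: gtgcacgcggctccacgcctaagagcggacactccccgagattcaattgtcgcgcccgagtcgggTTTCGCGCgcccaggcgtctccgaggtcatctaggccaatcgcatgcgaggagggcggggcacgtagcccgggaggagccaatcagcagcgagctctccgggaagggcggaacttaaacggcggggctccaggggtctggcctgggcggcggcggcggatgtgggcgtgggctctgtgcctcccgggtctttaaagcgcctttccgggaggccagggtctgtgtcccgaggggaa

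The POU octamer ATGCAAAT was in none of the member windows and in 1.74% of all windows. A match is a description of letters and shows no binding.

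**Figure D4:**
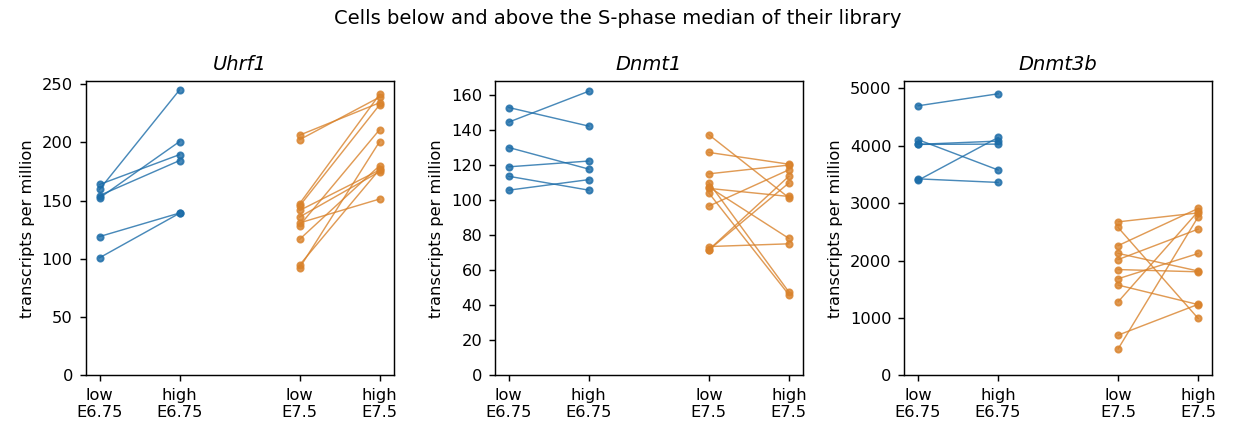
Uhrf1, Dnmt1 and Dnmt3b in CPM (linear axes from 0) in cells at or below ("low") and above ("high") the S-phase median of their library, with 1 line per library. Every Uhrf1 line rises, 6 at E6.75 and 11 at E7.5, while the Dnmt1 and Dnmt3b lines go both ways.

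Tet1 supplied most TET transcripts at both stages, and its share was lower at E7.5. In Sox2 cells Tet1 made up 83.2% to 87.1% (median 84.6%) of Tet1, Tet2 and Tet3 transcripts in the 6 E6.75 libraries and 62.97% to 81.4% (median 74.3%) in the 10 E7.5 libraries, with no overlap. The share of Tet3, the main TET enzyme of the oocyte and zygote, had medians of 14.9% and 24.7%. In E7.5 Foxa2 cells the median Tet1 share was 58.7%, with a range of 20% to 81.5% over 8 libraries. These sums held 5 to 52 TET transcripts, and the 20% came from the 5 of replicate 4. In visceral endoderm the median was 70.3% (61.1% to 82.4%), from 8 to 61 TET transcripts per library. These shares were not tested. Tet2 (chromosome 3, 133463679 to 133545139, minus strand), best known as a tumour suppressor of blood cells, passed the low-count filter in no comparison. Its embryonic sums held 33 transcripts at E6.75 and 27 at E7.5, or 1.46 and 1.98 CPM, and no test of it is given. Pooled over libraries it stood at 6.00 CPM in visceral endoderm (6 transcripts), 4.28 in E6.75 Mesp1 cells (7) and 1.21 in E6.75 Sox2 cells (16).

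**Figure D5:**
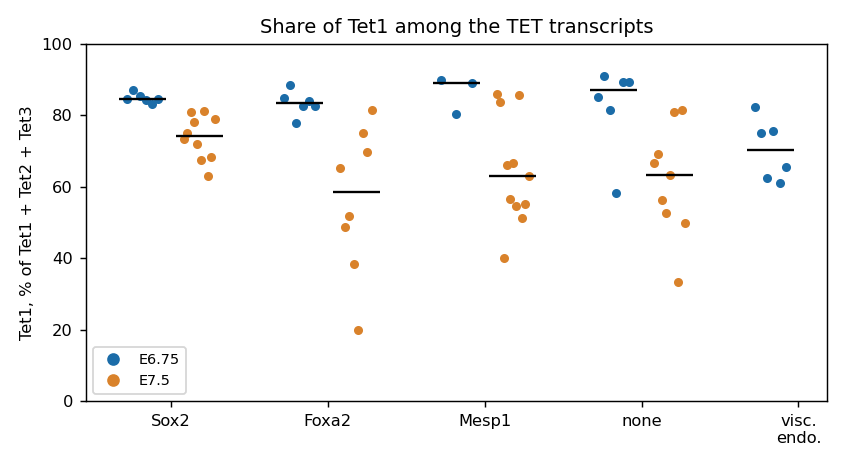
Tet1 as a percentage of the summed Tet1, Tet2 and Tet3 transcripts, with 1 point per library and medians as horizontal bars, for cells grouped by the detected gene ("none" and "visc. endo." as in the plot of levels). In Sox2 cells all 6 E6.75 libraries lie above the 10 E7.5 libraries, and the E7.5 Foxa2 and Mesp1 libraries spread widely.

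Across the 57 sums of a library and group with at least 50000 transcripts, Dnmt3b and Dnmt3a had a Pearson correlation of log2 level of 0.84, Dnmt3b and Tet1 of 0.71, and Uhrf1 and Dnmt3b of -0.03. These sums share libraries and stages, so the values are descriptions. Among 8496 other genes, the closest to Dnmt3b were Pim2 (0.93), a kinase gene, and L1td1 (0.89), an RNA-binding factor of pluripotent cells. The closest to Dnmt3a were G3bp2 (0.89) and Mkrn1 (0.86), and to Tet1 Jmjd1c (0.89), a histone demethylase family gene, and Gm43041 (0.81). Dnmt1 was closest to Ppp1r12a (0.68) and the replication helicase subunit Mcm4 (0.65), Uhrf1 to Stoml2 (0.57) and the replication clamp Pcna (0.55), and Tet3 to 1700007K13Rik (0.69) and 2410004P03Rik (0.68).

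Other genes of the methylation machinery moved in both directions between stages. Of 35 listed genes, 28 could be tested in embryonic cells, 7 were higher and 10 lower at E7.5, where 43.4% of all genes were called and 21.4% called lower, with a median of -0.08, close to the 0.02 of all genes. Uhrf2, the paralog of Uhrf1, rose from 56.3 to 77.04 CPM (n = 6) to 114.2 to 251.7 (n = 11), with no overlap and a log2 fold change of 1.32 (SE 0.143, adjusted p = 4.49e-07). It was also higher in Sox2 (1.28), Foxa2 (1.89) and Mesp1 cells (0.95), with adjusted p of 0.000117, 1.37e-06 and 0.034. Uhrf2 and Uhrf1 are related in sequence, and the counting of reads they might share is not given in the sources used here. Idh2 (0.54, adjusted p = 0.000386) and Gadd45g (2.39, SE 0.56, adjusted p = 0.00162) were the next higher by adjusted p, Gadd45g from 2.98 ± 1.39 to 14.3 ± 14.3 CPM. Usp7 (-0.62), a deubiquitinase that binds DNMT1 and UHRF1, Smchd1 (-0.74), which acts in silencing of the inactive X, and Hells (-0.76), a chromatin remodeller needed for DNA methylation, were lower, with adjusted p of 9.44e-07, 1.28e-06 and 9.38e-06. Hells and Cdca7, which form a remodelling complex, were the 2 of 26 and 2 of 20 tested pathway genes higher in the high S-phase cells at E6.75 (0.32 and 0.37, adjusted p = 0.000948 and 0.000463) and E7.5 (0.38 and 0.36, adjusted p = 0.00806 and 0.0397). Of all genes, 0.752% and 1.5% were called higher in these splits. In visceral endoderm, 7 of 26 tested pathway genes were lower and 1 higher, led by Cdca7 (-2.02, adjusted p = 7.37e-06), Cdca7l (-2.44, 0.00015) and Trim28 (-0.66, 0.00048), with Idh1 higher (0.84, 0.0333). Over all genes, 34.1% were called there and 16.2% called lower.

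Germline genes known to carry promoter methylation in somatic cells were low at both stages. Of 17 listed, 16 were in the tables. Between stages 6 passed the filter, all through their E6.75 level, so the filter fixed their direction and only levels are given. Mael, a piRNA pathway gene, had 5.91 to 9.37 CPM in E6.75 libraries and 0 to 4.09 in E7.5 libraries. Rpl10l, a testis ribosomal protein gene, had 9.15 to 26.8 and 0 to 2.70. Ddx4, a germ cell RNA helicase gene, had 6.85 to 8.78 and 0.745 to 8.16, and its stages overlapped. In the lineage comparisons 1 germline gene could be tested at E6.75 and 0 at E7.5, and none was called by limma voom.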

How the data were processed

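Single-cell RNA sequencing tables of 18 libraries were analysed. The deposited values were expected transcript counts per gene and barcode. Every nonzero value equalled K times the negative natural log of 1 - k/K, with K = 4096 and k whole to within 4.09e-12, a correction for identifier collisions made before deposit, with no depth normalisation; the table recording each file's unit gives it as other, since the automatic unit check could not read these files. Per the submitters' processing notes, bcl2fastq 2.17.1.14 and BWA 0.6.2-r126 were used. The build, annotation and use of strand are not given in the sources used here, and gene positions are from GENCODE (GRCm38).

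Each library filled 96 of 192 barcode columns; 16 used the first or last 96 and the other 2 alternate pairs of columns, so libraries of 1 pattern share barcodes by design. No doublet caller was run on these picked or sorted cells. Transcripts of kept cells were summed per library and group of at least 3 cells, in libraries of at least 10 cells. A quasi-likelihood count model had been planned. In its place, sums were compared with limma 3.58.1 (R 4.3.3) by voom, with TMM scaling (trimmed mean of M values), a filter (count of 10 at median depth in the smallest group's number of sums, 15 in all) and Benjamini-Hochberg adjustment over all genes at 0.05. Comparisons within a stage had the library as a block, since groups came from the same libraries. Voom was tried on simulated sums for the stage comparison in embryonic cells and for Mesp1 against Sox2 cells at E7.5 alone. These had the same spread for all genes and no library effect, and changed no low-count gene. Python 3.11.15 was used for sums.

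The plan named all 8 members in each comparison, and pathway and germline genes as up to 3 per direction by adjusted p. It also named the 2 most correlated genes per member. Some members that did not pass and some called pathway genes of the lineage comparisons are left out of the text above. The members and lists were chosen with earlier results of these data known. Alternatives were another scaling, no filter, observed identifiers, cells of at least 10000 transcripts, cells thinned to 2000, cells above 3 times the library median depth (the deepest) or extraembryonic ectoderm rule cells left out, libraries left out in turn, and, added after the data were seen, limma-trend.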

Additional observations from a re-analysis of the deposited data

Results flagged for a closer look

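Of 52 groups of 4 to 10 libraries, 5 had a library far from the others, where chance flags about 1 in 20. Dnmt3a in undetected E6.75 cells was lowest in replicate 2_13, at 471.7 CPM against 595.7 to 665.9, from 3 cells. Dnmt3b in visceral endoderm was highest in replicate 2_9, at 1895 CPM against 672.9 to 1099, from 16 cells. Dnmt3l in E6.75 embryonic cells was highest in replicate 2_12, at 11.45 CPM against 7.433 to 8.333. That library had 7 extraembryonic ectoderm rule cells, the most of any, and stood at 9.684 CPM without them. Tet1 in visceral endoderm was highest in replicate 1_10, at 220.0 CPM from 3 cells and 14 transcripts, and in undetected E7.5 cells in replicate 10, at 200.9 CPM from 12 transcripts. The Dnmt3b difference of Mesp1 from Sox2 cells differed between stages by -0.864 on the log2 scale (limma voom, adjusted p = 0.0367), and 3 E6.75 libraries had Mesp1 cells.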

How the results depend on the processing

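Of 2079 alternative values of the members, 1937 kept their direction and side of the threshold, and 63 stayed past no threshold but changed sign. Of 35 calls, 20 were never lost. The 35 include Dnmt3l between stages, which is also among the 20, and Dnmt3l in visceral endoderm. No result is drawn from either of these, so the tally is no support for Dnmt3l. Over libraries left out in turn, the members called numbered 5 in every run for embryonic cells between stages (Dnmt3l included) and 3 for Sox2 cells, 2 to 4 for Mesp1 and 3 to 4 for Foxa2 cells. At E6.75 they numbered 0 to 4 for Mesp1 against Sox2, and 0 to 2 for Foxa2 against Sox2 and for Mesp1 against Foxa2. Also at E6.75, they numbered 0 for undetected cells, 2 to 4 for visceral endoderm (Dnmt3l included) and 0 to 1 for the S-phase split. At E7.5 they numbered 3 to 4 for Mesp1 against Sox2, 1 to 2 for Foxa2 against Sox2 and Mesp1 against Foxa2, 2 to 3 for undetected cells and 1 for the S-phase split, and 0 to 1 for each difference between stages. In cells thinned to 2000 transcripts, which tests fewer genes, 3 members were called between stages in embryonic cells and 1 each in Sox2, Mesp1 and Foxa2 cells. Thinning left 1 for Mesp1 against Sox2 at each stage and for undetected E7.5 cells, and 2 for visceral endoderm. It left 0 for the other E6.75 groups, both S-phase splits and the Mesp1 stage difference. Uhrf1 did not pass the filter in the thinned E7.5 split, so its call was not tested there. Tet1 in visceral endoderm changed sign in thinned cells (0.361). By limma-trend, Mesp1 against Sox2 at E6.75 had 1, Foxa2 against Sox2 and Mesp1 against Foxa2 at E6.75 and the Mesp1 stage difference had 0, and visceral endoderm Dnmt3l changed sign (0.734). With no low-count filter these had 5, 2, 0 and 0, and undetected E6.75 cells 2. Without the replicate block, E6.75 had 0 for Foxa2 against Sox2, 1 for Mesp1 against Foxa2 and 0 for the S-phase split, and E7.5 had 0 for Mesp1 against Foxa2; other calls changed as given with each result or not at all. Leaving out the deepest cells gave 2 for Foxa2 against Sox2 at E6.75 and 0 for the Mesp1 stage difference, which was also 0 with cells of at least 10000 transcripts and with prefix 2 libraries alone. Cells of at least 10000 transcripts gave 0 for Mesp1 against Foxa2 at E7.5. Leaving out extraembryonic ectoderm rule cells gave 2 for Foxa2 against Sox2 and Mesp1 against Foxa2 at E7.5, and 1 for the Foxa2 stage difference. The causes were not tested.

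Over all genes, 4325 were called between stages in embryonic cells, 12711 with no low-count filter and 687 in thinned cells. In Sox2 cells these were 2158, 11144 and 212, in Foxa2 cells 1067, 4832 and 33, and in visceral endoderm 3116, 14271 and 287 (5213 by limma-trend). The second count tool that had been planned was not run. Depth limits Tet2 and Dnmt3l most.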
